A study of Mus musculus with 3 samples.

Results

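The mitochondrial Slc25 carriers were taken as every gene spot whose name in the scanner files begins with Slc25a and a number, or is Ucp1, Ucp2 or Ucp3. This gave 45 of the 31896 genes on the array, measured by 54 probes on 63 spots. Within the family the name chose the members, but the family and the lists used below were chosen with earlier results of these data known. Each of 3 arrays hybridised total RNA of 1 primary diffuse-type gastric cancer in Cy5 (red) against 1 pool of 5 normal gastric mucosae in Cy3 (green). The tumours came from 12-month-old Atp4b-Cre+;Cdh1loxP/loxP;Trp53loxP/loxP mice, and the mucosae from Atp4b-Cre-;Cdh1loxP/loxP;Trp53loxP/loxP mice of the same age. Both groups therefore carried the floxed alleles of Cdh1, which encodes E-cadherin, and of Trp53, which encodes p53, and only the tumour mice carried Cre, driven by the promoter of the parietal cell gene Atp4b. The pooled mucosae had their stroma stripped off mechanically in EDTA, and no such step is described for the tumours.

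Slc25 proteins sit in the inner mitochondrial membrane, with a few exceptions in other membranes, and exchange solutes between the cytosol and the matrix. Among them are the ADP/ATP carriers, which export ATP made by oxidative phosphorylation, the phosphate carrier that supplies ATP synthase, the shuttles of malate, aspartate, citrate and acylcarnitines, and the uncoupling proteins, which let protons leak back into the matrix. Acid-secreting parietal cells of the normal gastric mucosa are packed with mitochondria, which fuel the proton pump.

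The log2 ratio of tumour over pool was the measure throughout, and a gene was called when limma gave an adjusted p under 0.05 with a difference of at least 2-fold. Of the 45 carrier genes, 39 were tested. Among them 14 were called lower in the tumours, 2 were called higher and 23 were not called. Over all genes tested, 9.68% were called lower and 9.33% higher. The median log2 ratio was -0.68 over the carriers tested and 0.05 over all genes tested, and 79.5% of these carriers had a mean below 0, beside 46.3% of all genes. These counts depend on the scale on which a ratio of 0 is set. When each array was centred on its median gene spot without loess (median centring from here on), the median of all genes moved up by 0.72. Then 2 carriers were called lower and 5 higher, beside 2.86% and 39.9% of all genes tested. The carriers still called lower were Slc25a34 and Slc25a5, 18 of the 39 were below 0, and of the 14 lower carriers Slc25a11 alone was above 0. On that scale the carriers' median was 0.06. The difference of the carriers' median from that of all genes was -0.71 there and -0.73 in the main scaling. Fewer cells of a type and less RNA per cell cannot be told apart in such bulk samples.

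The array measured each carrier with 60-base probes, and the sequences of some probes whose readings are described here are shown first. Positions are those of mm9 as the file headers give them. No annotation of that build was used here, so the exon or UTR under a probe was not assigned. The first probe is that of Slc25a4 at chr8:47292828-47292887, minus strand, the carrier printed on 10 spots of each array. The second is the Ucp3 probe that gave a signal, at chr7:107630399-107630458, plus strand. The third, at chr14:69902797-69902856, minus strand, and the fourth, at chr4:149123432-149126565, minus strand, are the second probes of Slc25a37 and Slc25a33, whose ratios differed from those of the first. The fifth is the second Slc25a26 probe, at chr6:94548392-94549185, plus strand. Its capitals mark a stretch that reads, in an open frame, as the carrier family's signature of a proline followed at fixed spacing by an acidic and a basic residue.
Slc25a4: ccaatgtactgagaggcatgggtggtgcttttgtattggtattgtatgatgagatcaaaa
Ucp3: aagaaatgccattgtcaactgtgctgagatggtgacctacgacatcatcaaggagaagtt
Slc25a37: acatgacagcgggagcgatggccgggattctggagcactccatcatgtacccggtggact
Slc25a33: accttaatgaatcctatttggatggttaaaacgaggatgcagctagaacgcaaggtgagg
Slc25a26: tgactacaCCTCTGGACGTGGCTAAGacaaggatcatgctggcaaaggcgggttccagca
The Slc25a26 probe was the single one of 51 carrier probes scanned that held this signature in an open frame, and 0.713% of all gene probes held it.

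Promoters are shown because carriers of the same transport task moved by different amounts. They are RefSeq windows of GRCm38.p6, from 250 bases before to 50 bases after the start. The genes are the 3 carriers with the lowest ratios, Slc25a34 at chr4:141623785-141624084 (minus), Slc25a5 at chrX:36795347-36795646 (plus) and Slc25a3 at chr10:91123918-91124217 (minus), and Slc25a4 at chr8:46211013-46211312 (minus), the near relative of Slc25a5. Capitals mark exact matches to the motifs named after them.
Slc25a34: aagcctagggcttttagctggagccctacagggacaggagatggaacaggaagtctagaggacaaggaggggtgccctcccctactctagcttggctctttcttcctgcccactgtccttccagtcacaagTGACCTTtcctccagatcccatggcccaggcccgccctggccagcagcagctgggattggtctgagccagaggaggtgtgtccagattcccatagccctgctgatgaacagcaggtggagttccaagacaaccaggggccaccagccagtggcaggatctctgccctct
Slc25a5: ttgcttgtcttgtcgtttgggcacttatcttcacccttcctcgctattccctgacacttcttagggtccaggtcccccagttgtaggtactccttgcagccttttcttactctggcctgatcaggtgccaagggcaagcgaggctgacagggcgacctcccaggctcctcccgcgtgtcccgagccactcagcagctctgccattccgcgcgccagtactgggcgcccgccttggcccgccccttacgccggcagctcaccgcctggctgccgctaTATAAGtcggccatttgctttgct
Slc25a3: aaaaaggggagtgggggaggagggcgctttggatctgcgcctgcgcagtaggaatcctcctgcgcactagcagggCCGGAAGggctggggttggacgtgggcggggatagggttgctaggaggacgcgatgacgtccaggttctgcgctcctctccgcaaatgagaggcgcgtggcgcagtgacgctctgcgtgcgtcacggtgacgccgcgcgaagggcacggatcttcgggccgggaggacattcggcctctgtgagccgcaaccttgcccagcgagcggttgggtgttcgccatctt
Slc25a4: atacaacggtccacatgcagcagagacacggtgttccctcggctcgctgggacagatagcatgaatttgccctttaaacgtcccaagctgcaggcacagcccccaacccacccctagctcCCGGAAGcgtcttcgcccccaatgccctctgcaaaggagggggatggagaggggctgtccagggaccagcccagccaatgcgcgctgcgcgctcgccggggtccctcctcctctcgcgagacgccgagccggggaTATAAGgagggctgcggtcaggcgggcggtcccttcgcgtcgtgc
The motifs were searched on both strands in 32851 windows, 44 of them of the 35 carrier genes that had any. The percentages are shares of windows, while carriers are counted as genes with any window holding the motif, so the units differ. The half-site AAGGTCA of the oestrogen-related receptors was in 4.72% of all windows and, among the 35 carrier genes with a window, in that of Slc25a34, at position -119 on the minus strand. The longer form TCAAGGTCA, which overlaps the half-site, was in 0.423% of all windows and in 0 carrier windows. CCGGAAG, the core bound by ETS factors including GABP, was in 8.86% of all windows and in those of 6 carrier genes, Slc25a3, Slc25a4, Slc25a17, Slc25a20, Slc25a25 and Slc25a38. TATAAG was in 7.43% of all windows and in those of Slc25a4, Slc25a5 and Slc25a15. The E-box CACGTG, in 7.15% of all windows, was in those of 7 carrier genes, none of them printed above. The palindromic NRF1 site was in 0.971% of all windows and in 0 carrier windows. The windows differed in base composition: that of Slc25a34 held 1 CpG at 59.0% GC, while that of Slc25a3 held 31 at 65.7%. Over the 44 carrier windows the median was 15 CpG, beside 7 over all windows.

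**Figure D1:**
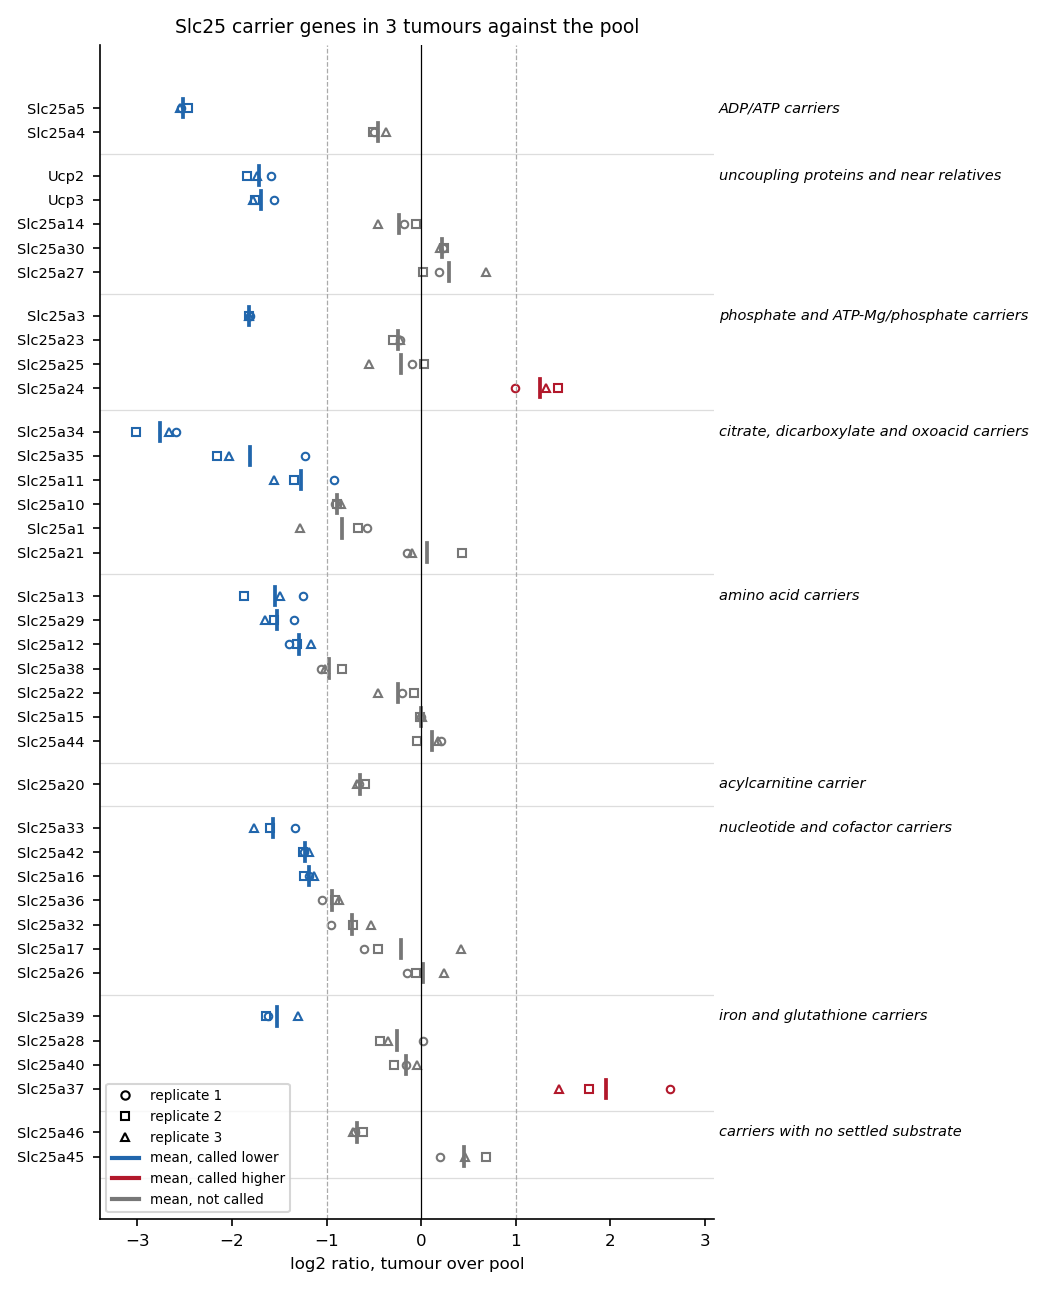
Log2 ratio of tumour over pool (x axis) for 38 of the 39 carrier genes tested, in role groups, with 1 symbol per array and a bar at the mean; blue, red and grey mark genes called lower, called higher and not called, and dashed lines mark 2-fold. Slc25a34 and Slc25a5 lie farthest left and Slc25a37 and Slc25a24 farthest right; with median centring 18 of the 39 tested carriers were below 0, and Slc25a11 alone of the blue ones was not.

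The ADP/ATP carriers exchange matrix ATP for cytosolic ADP. Slc25a5, the isoform of dividing and epithelial tissues, gave log2 ratios of -2.53, -2.46 and -2.55 in tumours 1, 2 and 3. The 3 tumours lay within 0.1 of one another. The mean was -2.51 ± 0.05 (SD, n = 3), a 5.71-fold lower level (adjusted p = 0.000458). Slc25a4, the isoform best known from heart and muscle, gave -0.49, -0.51 and -0.38, with a mean of -0.46 ± 0.07 (SD, n = 3). It passed the adjusted p (0.0169) and not the fold, at 1.38-fold. Its spots, 10, 10 and 9 after outlier flags, had an SD of 0.07, 0.04 and 0.08 within the arrays. The sign of Slc25a4 turned with median centring, to 1.16 (adjusted p = 0.00161), and when arrays were centred on the spike-in spots, also without loess (the spike-in scale from here on), to 0.31. The difference of Slc25a4 minus Slc25a5 needs no such choice of a zero. It was 2.04, 1.95 and 2.17 on the 3 arrays, 4.16-fold on average, and it was 1.93 to 2.18 under the scalings that moved it by more than its SD of 0.11. An exact sign-flip permutation test, two-sided, gave p = 0.25, the smallest that 3 arrays allow. Slc25a31, the testis isoform, was not well above background in either channel on any array.

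Of the uncoupling proteins and their near relatives, 2 of 5 tested were called lower and 0 higher. Ucp2, the broadly expressed uncoupling protein, gave -1.59, -1.84 and -1.73. All tumours were below the pool, with a mean of -1.72 ± 0.13 (SD, n = 3), 3.29-fold lower (adjusted p = 0.000967). Ucp3, known from skeletal muscle and brown fat, gave -1.55, -1.76 and -1.78 through the probe printed above. Its mean was -1.70 ± 0.13 (SD, n = 3), 3.24-fold lower (adjusted p = 0.000988). Ucp3 is counted among the lower carriers by the name the files give this probe, and whether the probe reads Ucp3 transcripts or others of the region, Ucp2 among them, was not tested. The pool signal at this probe averaged 11.49 on the log2 scale, well above background on every array. The second Ucp3 probe, at chr7:107634291-107634350, was not well above background in either channel on any array and gave 0.08, so the 2 Ucp3 probes did not read alike.

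The Ucp2 probe lies at chr7:107647809-107647868 on the same strand, 17.4 kb beyond the end of the Ucp3 probe that gave a signal. The difference of Ucp2 minus Ucp3 was -0.04, -0.08 and 0.04 on the 3 arrays, so neither was consistently the lower of the pair (exact sign-flip permutation p = 0.75). Ucp1, the thermogenic protein of brown fat, gave 0.27, -0.01 and -0.03 and was not well above background in either channel on any array. Of the other brown adipocyte markers, 4 of 5 were tested, 1 was called higher and 2 lower, beside 9.33% and 9.68% of all genes. The higher one was Dio2, well above background in green on 0 arrays. The lower ones were Cox7a1, at -5.48 with a pool signal of 15.65, and Prdm16, at -1.41. With both channels required, 3 were tested, 0 called higher and 2 lower, beside 9.54% and 11.5% of all genes. Of the striated muscle markers, 3 of 5 were tested, and 1 was called higher and 0 lower, beside 9.33% and 9.68% of all genes. Ckm, the muscle creatine kinase, and Myh4, a myosin heavy chain, were not tested. The part of either cell type in the Ucp3 signal was not tested. The relatives Slc25a14, Slc25a27 and Slc25a30 were not called, with means of -0.23, 0.29 and 0.22 and adjusted p of 0.17, 0.19 and 0.0941. Slc25a30 was kept through red alone, and in Agilent's ratios it was called higher, at 1.67.

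Phosphate enters the matrix through Slc25a3, which gave -1.81, -1.83 and -1.81. It had the smallest spread of any carrier tested, with a mean of -1.82 ± 0.01 (SD, n = 3), 3.53-fold lower (adjusted p = 0.000699). Its second probe gave -1.63 ± 0.16 (SD, n = 3) and was also called lower in the fit over probes. The calcium-regulated ATP-Mg/phosphate carriers, which set the adenine nucleotide content of the matrix, had 1 of 3 tested called higher and 0 lower. Slc25a24 was one of the 2 carriers called higher, at 1.00, 1.45 and 1.32. Its probe, at chr3:108971266-108971325, read a mean of 1.26 ± 0.23 (SD, n = 3), 2.39-fold higher (adjusted p = 0.00305). Its relatives Slc25a23 and Slc25a25 had means of -0.25 and -0.21 and were not called (adjusted p = 0.0759 and 0.289), and Slc25a41 was not tested. On every array Slc25a24 lay above both: Slc25a23 minus Slc25a24 was -1.22, -1.75 and -1.55, and Slc25a24 minus Slc25a25 was 1.10, 1.42 and 1.88. Slc25a23 was kept through green alone, with red well above background on 2 of 3 arrays, and its value moved with the processing. It was called lower on the spike-in scale, at -1.33, and in Agilent's ratios, at -2.18. Slc25a23 minus Slc25a24 was -2.89 without loess and -3.50 in Agilent's ratios.

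Carriers of citrate, dicarboxylates and oxoacids had 3 of 6 members called lower and 0 higher. Slc25a34, placed in this group by sequence and with no settled substrate, had the lowest ratio of all carriers, at -2.60, -3.02 and -2.67. The mean was -2.76 ± 0.23 (SD, n = 3), 6.78-fold lower (adjusted p = 0.00063), and 1.3% of all genes tested lay at or below it. Its relative Slc25a35 gave -1.23, -2.16 and -2.04. Tumour 1 stood apart from the other two in this gene, and the mean of -1.81 ± 0.50 (SD, n = 3), 3.50-fold lower, passed at an adjusted p of 0.00465. Slc25a11, the oxoglutarate/malate carrier of the malate-aspartate shuttle, gave -0.92, -1.34 and -1.55. The mean was -1.27 ± 0.32 (SD, n = 3), 2.42-fold lower (adjusted p = 0.00471). It was at 0.11 with median centring and lost its call on the spike-in scale, at -0.74 (limma adjusted p = 0.0527). Adjusted p on the spike-in scale followed the size of the ratio and does not measure a gene's own spread over the tumours. The dicarboxylate carrier Slc25a10 and the citrate carrier Slc25a1, which feeds fatty acid synthesis, passed the adjusted p and not the fold, at -0.89 ± 0.04 and -0.84 ± 0.39 (SD, n = 3; adjusted p = 0.00294 and 0.0194). In Slc25a1 tumour 3, at -1.28, was lower than tumours 1 and 2, at -0.57 and -0.66. The oxodicarboxylate carrier Slc25a21 had a mean of 0.06 and was kept through green alone.

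Among the amino acid carriers 3 of 7 tested were called lower and 0 higher. Both aspartate/glutamate carriers, which complete the malate-aspartate shuttle, were in this set. Slc25a13, called citrin, gave -1.25, -1.87 and -1.50, with a mean of -1.54 ± 0.31 (SD, n = 3), 2.91-fold lower (adjusted p = 0.00287). Slc25a12, called aralar, gave -1.40, -1.31 and -1.16, with a mean of -1.29 ± 0.12 (SD, n = 3), 2.45-fold lower (adjusted p = 0.00163). Neither was the lower of the pair on every array: their difference was -0.15, 0.57 and 0.34 (exact sign-flip permutation p = 0.5). Slc25a29, a carrier of basic amino acids, gave -1.34, -1.56 and -1.65. Its mean was -1.52 ± 0.16 (SD, n = 3), 2.87-fold lower (adjusted p = 0.00136). Slc25a38, a glycine carrier needed for haem synthesis, was just short of the fold at -0.97 ± 0.12 (SD, n = 3; adjusted p = 0.00305). The glutamate carrier Slc25a22, the ornithine carrier Slc25a15 and the branched-chain amino acid carrier Slc25a44 lay between -0.24 and 0.12 and were not called. Slc25a15 was kept through red alone. Slc25a2 and Slc25a18, relatives of Slc25a15 and Slc25a22, were not well above background on any array.

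The acylcarnitine carrier Slc25a20, which brings fatty acids in for oxidation, gave -0.65, -0.59 and -0.68. It passed the adjusted p (0.00659) and not the fold, with a mean of -0.64 ± 0.05 (SD, n = 3). It was called lower with a normexp offset of 0 (-1.02) and in Agilent's and the authors' values (-1.26 in both).

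In the nucleotide and cofactor group, 3 of 8 were called lower and 0 higher. Slc25a33, a pyrimidine nucleotide carrier, gave -1.34, -1.60 and -1.77 through its brighter probe. The mean was -1.57 ± 0.22 (SD, n = 3), 2.97-fold lower (adjusted p = 0.00168). Its second probe, printed above, gave -0.59 ± 0.07 (SD, n = 3) and was not called. Slc25a42, a carrier of coenzyme A, gave -1.24, -1.25 and -1.18, and Slc25a16, its near relative, gave -1.19, -1.23 and -1.14. These carriers had means of -1.23 ± 0.04 and -1.19 ± 0.05 (SD, n = 3), 2.34-fold and 2.28-fold lower (adjusted p = 0.0014 and 0.00154). Their difference was at most 0.05 on each array in this scaling, and Slc25a16 minus Slc25a42 was -0.60 with a normexp offset of 0. Slc25a36, the second pyrimidine nucleotide carrier, and Slc25a32, the folate carrier, passed the adjusted p and not the fold, at -0.94 and -0.73. Slc25a17, which is peroxisomal, gave -0.61 and -0.45 in tumours 1 and 2 and 0.42 in tumour 3, so the tumours did not share a direction. The S-adenosylmethionine carrier Slc25a26 was at 0.01 by its brighter probe and at -0.71 ± 0.01 (SD, n = 3) by the printed one, which was under 2-fold and not called.

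The iron and glutathione carriers moved in both directions. Slc25a37, mitoferrin-1, which imports iron and is best known from red cell precursors, gave 2.63, 1.78 and 1.46. All tumours were above the pool and tumour 1 was the highest. The mean was 1.95 ± 0.61 (SD, n = 3), 3.88-fold higher (adjusted p = 0.00571), the largest rise among the carriers tested. The second Slc25a37 probe, printed above, gave 0.84, 0.97 and 1.00. Its mean of 0.94 ± 0.08 (SD, n = 3) passed the adjusted p in the fit over probes (0.00275) and not the fold, and tumour 1 was the lowest there. It lies upstream of the first, which is at chr14:69860020-69860079 on the same minus strand. Mitoferrin-2, Slc25a28, the form of other tissues, gave 0.02, -0.43 and -0.35 and was not called (adjusted p = 0.159). Slc25a28 minus Slc25a37 was -2.61, -2.21 and -1.81 on the 3 arrays, so mitoferrin-1 had the higher ratio in each tumour.

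Slc25a39, a glutathione carrier, gave -1.61, -1.64 and -1.30, with a mean of -1.52 ± 0.19 (SD, n = 3), 2.87-fold lower (adjusted p = 0.00158). Its paralogue Slc25a40 was at -0.16 and was not called (adjusted p = 0.225). The difference of Slc25a39 minus Slc25a40 was -1.46, -1.36 and -1.25 on the 3 arrays. Of the carriers with no settled substrate, Slc25a46, an outer membrane protein of mitochondrial dynamics, gave -0.70, -0.62 and -0.72. Its mean of -0.68 ± 0.05 (SD, n = 3) passed the adjusted p (0.00586) and not the fold, and median centring turned it to 0.52. Slc25a45 was at 0.45 ± 0.25 (SD, n = 3; adjusted p = 0.045) and Slc25a43 was not tested.

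**Figure D2:**
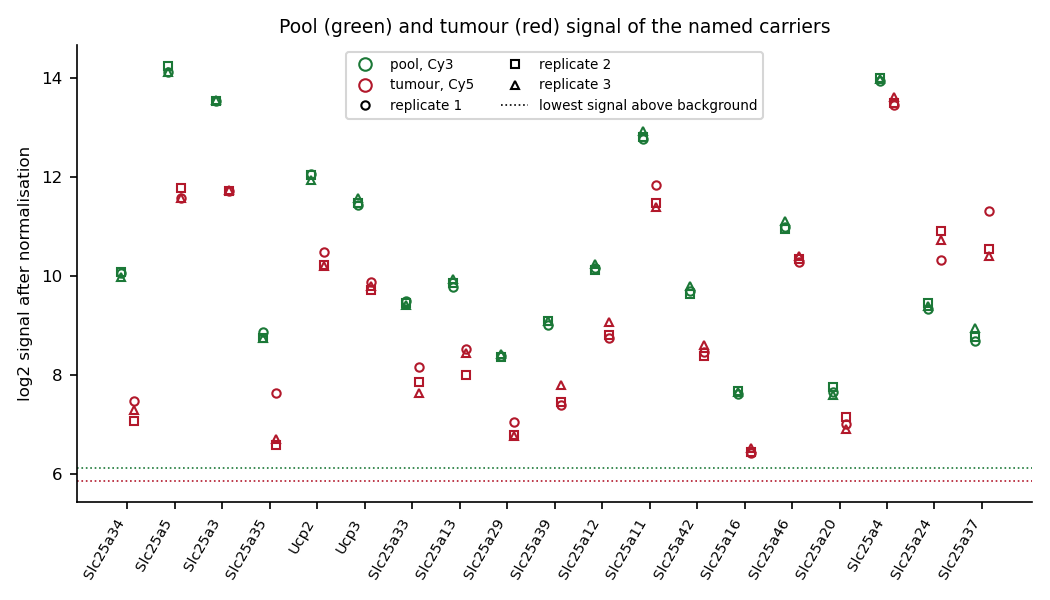
Normalised log2 signal (y axis) of the pool in green and the tumours in red on each array for 19 tested carriers. They are those named with all array values, without Slc25a1, Slc25a17 and Slc25a28, whose array values were added later. Dotted lines mark, per channel, the highest over the arrays of the lowest signal well above background. Green symbols of a gene mostly lie closer together than red ones, Slc25a3 and Slc25a46 being exceptions, and red lies above green for Slc25a24 and Slc25a37 alone of those plotted.

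The single pool was on every array, and its signal varied less than that of the tumours. Over the 39 tested carriers the median SD over arrays was 0.0716 in green and 0.171 in red, and green had the smaller SD in 35. The p-values rest on the spread of 3 tumours around this 1 pool and leave out the spread among normal mice. The 16 called carriers had the same sign on all arrays. At adjusted p alone, 22 carriers were lower and 3 higher, beside 22.9% and 24.5% of all genes. Both channels were well above background on every array in 35 of the 39. With the test limited to such genes, the same 14 were called lower and the same 2 higher, beside 11.5% and 9.54% of all genes so limited. Of carriers short of the fold, Slc25a10, Slc25a36 and Slc25a38 were called lower at both other normexp offsets and in Agilent's and the authors' values, and Slc25a32 in these except at an offset of 16. Slc25a38 was also called with centring on the tested genes and without replicate 2. The 6 untested carriers, Slc25a2, Slc25a18, Slc25a31, Slc25a41, Slc25a43 and Ucp1, gave single-array ratios between -0.18 and 0.27 at mean log2 signals of 5.94 to 6.12. Those signals are at the edge of detection, so no change could be read from them.

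**Figure D3:**
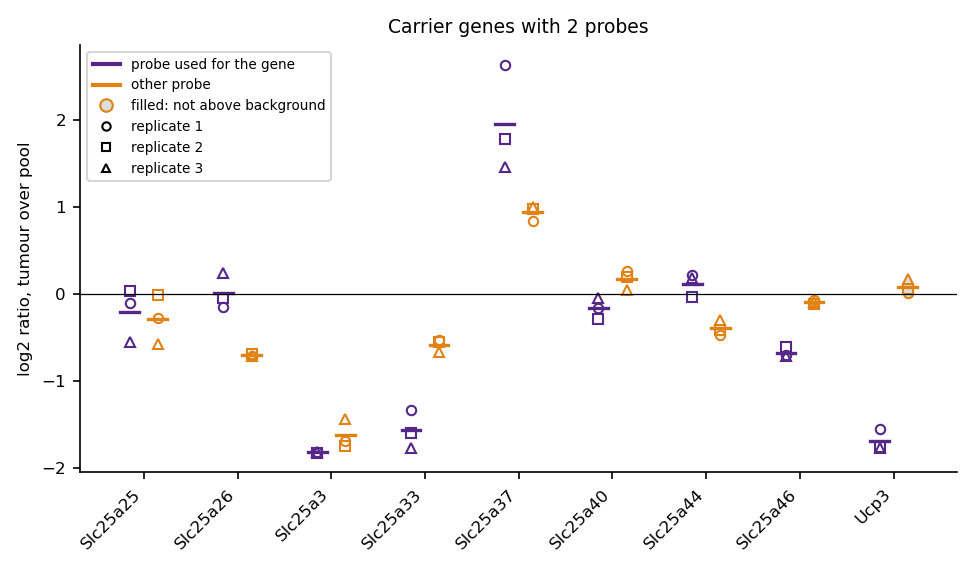
Log2 ratio of tumour over pool (y axis) for the 9 carrier genes with 2 probes, purple for the probe used for the gene and orange for the other, with 1 symbol per array and a bar at the mean; filled symbols are not well above background. Slc25a3 read nearly alike by its probes, at -1.82 and -1.63, and Ucp3 did not, at -1.70 and 0.08.

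Of the 9 genes with 2 probes, 8 had both kept. The probes of a gene had the same sign in 5 of the 8 and the same call in 6. Slc25a33 and Slc25a37 differed in the call, at the same sign. Slc25a26, Slc25a40 and Slc25a44 differed in sign, with none of their probes called. The other Slc25a40 probe was at 0.17 and the other Slc25a44 probe at -0.40. Slc25a46 read -0.68 and -0.10, and Slc25a25 read -0.21 and -0.29. Over probes rather than genes, 15 carrier probes were called lower and 2 higher, beside 9.12% and 8.44% of all probes kept.

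**Figure D4:**
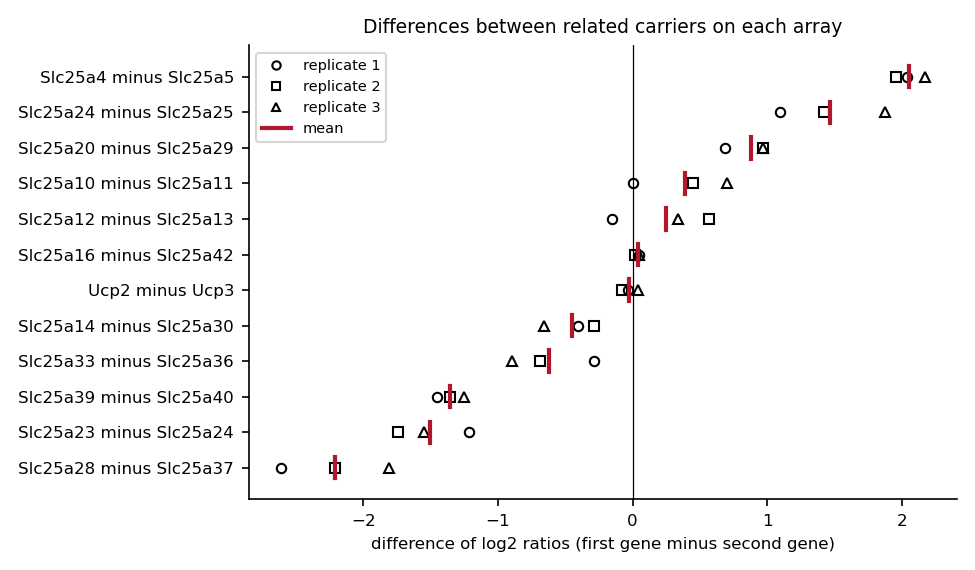
Difference of the log2 ratios of related carriers (x axis, first gene minus second) for the 12 pairs in which both were tested, with 1 symbol per array and a bar at the mean. Slc25a4 against Slc25a5 and Slc25a28 against Slc25a37 lie farthest from 0 on either side, at 2.06 and -2.21, and Ucp2 against Ucp3 and Slc25a16 against Slc25a42 lie nearest to it.

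Related carriers were compared on each array in 12 pairs of the 15 that had been listed. The difference had the same sign on all arrays in 10. The sign-flip test gave each of these p = 0.25, the smallest it can give (exact permutation, two-sided; 0.3 after Benjamini-Hochberg over the 12 pairs), so no pair could pass a threshold of 0.05.  Of pairs not yet given, Slc25a10 minus Slc25a11 was 0.39 ± 0.35 and Slc25a20 minus Slc25a29 was 0.88 ± 0.16 (SD, n = 3). Slc25a33 minus Slc25a36 was -0.62 ± 0.31 (-0.13 when the probes of each gene were combined by their median), and Slc25a14 minus Slc25a30 was -0.45 ± 0.19 (SD, n = 3). Without loess the first and last of these changed sign, to -0.19 and 0.41, and Slc25a10 minus Slc25a11 was also below 0 at an offset of 0 and in Agilent's ratios.

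Other genes of mitochondrial transport and its control were counted from lists. Of 22 mitochondrial transporters and channels outside the Slc25 family, 8 were called lower and 0 higher, with a median log2 ratio of -0.77. Of all genes, 9.68% were called lower and 9.33% higher. The subunits of the pyruvate carrier, Mpc1 and Mpc2, were at -2.52 ± 0.14 and -2.11 ± 0.19, and the sideroflexin Sfxn2 at -2.07 ± 0.44 (SD, n = 3; adjusted p = 0.000555, 0.000853 and 0.0026). With median centring and no loess, 1 of the 22 was called lower, Mpc1 at -1.06, and 3 higher. The shares of all genes on that scale were 2.86% lower and 39.9% higher. Of 16 genes of the import machinery that inserts carriers into the inner membrane, 1 was called lower and 0 higher, near the 9.68% and 9.33% of all genes, with a median of -0.29. The gene was Timm8b, which encodes a small Tim protein, at -1.10 ± 0.29 (SD, n = 3; adjusted p = 0.00572). It lost the call at a normexp offset of 0 and without replicate 3, at -0.98 in each, and on the spike-in scale, at -0.39. Timm22, the pore of the carrier translocase, was at -0.05. Median centring put Timm8b at 0.46 and called 4 genes of this list higher, beside 39.9% of all genes on that scale.

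Of 13 regulators of mitochondrial gene expression, 5 were called lower and 0 higher, beside 9.68% and 9.33% of all genes, with a median of -0.54. They were the coactivators Ppargc1a and Ppargc1b and the nuclear receptors Esrra, Esrrg and Ppara. Esrrg gave -5.57, -5.90 and -5.68, a mean of -5.72 ± 0.17 (SD, n = 3; adjusted p = 0.000235), with red well above background on 2 of 3 arrays. Its size is uncertain at that signal: it was -7.35 at a normexp offset of 0 and -8.41 in Agilent's ratios. Esrrg was kept through green alone and had no value with both channels required or in the authors' values. In each of these settings 4 of 12 regulators were called lower, beside 11.5% and 17.5% of all genes. Ppargc1a was at -2.43 ± 0.60 and Esrra at -1.66 ± 0.46 (SD, n = 3; adjusted p = 0.00317 and 0.00477). Nrf1 was at 0.14, Gabpa at -0.13 and the mitochondrial transcription factor Tfam at -0.22, and none of these was called. Median centring kept Esrrg, Ppargc1a and Ppargc1b lower, at -4.74, -1.39 and -1.09, beside 2.86% of all genes. It called 3 genes of this list higher, beside 39.9% of all genes.

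Markers of the gastric epithelium were lower beside the carriers, in the main scaling and in each scaling alternative by their medians. All 8 parietal markers, a list that also holds Esrrg, were called lower, beside 9.68% of all genes, with a median of -4.16. The log2 of their summed signals was 12.37 to 13.11 in the tumours and 18.59 to 18.66 in the pool, where Atp4b alone averaged 18.29. Atp4b, the proton pump subunit whose promoter drives Cre, was at -6.83 ± 0.14 (SD, n = 3; adjusted p = 0.000235). Chief cell markers were called lower in 4 of 6, with sums of 15.37 to 15.64 against 19.83 to 20.05, and surface mucous markers in 5 of 5, with sums of 15.3 to 16.27 against 20.03 to 20.43. Markers of other cells were called higher in the counts that follow, beside 9.33% of all genes. For macrophages these were 5 of 6 (sums of 14.13 to 14.3 against 11.61 to 11.66). For neutrophils they were 4 of 5 (15.52 to 17.73 against 13.53 to 13.63). Csf3r, the neutrophil marker not called, averaged 13.46 in the pool and made up most of that pool sum. For fibroblasts they were 5 of 6 (15.43 to 17.14 against 13.84 to 14.04). B cell markers rose in 3 of 4, T cell markers in 2 of 4, smooth muscle markers in 3 of 5 and proliferation markers in 2 of 5. The parietal median was -5.64 at a normexp offset of 0 and -6.8 in Agilent's ratios, and Slc26a7, one of these markers, was not well above background in red on any array. Median centring left 6 of 8 parietal markers called lower and called 2 chief cell markers higher, beside 2.86% and 39.9% of all genes. The part of these cell types in the carrier ratios was not tested. Of the targeted genes, Cdh1 was at -4.24 ± 0.85 (SD, n = 3; adjusted p = 0.00186) and Trp53 at -0.21 ± 0.15 (SD, n = 3; adjusted p = 0.161), and where their probes lie relative to the deleted exons was not assigned.

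**Figure D5:**
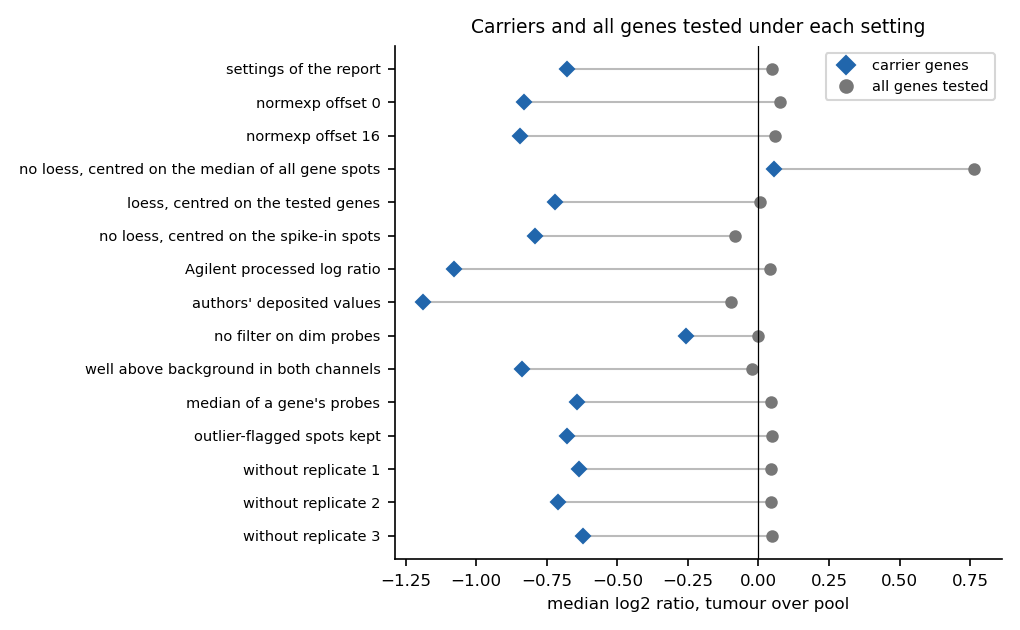
Median log2 ratio of tumour over pool (x axis) of the carrier genes (blue diamonds) and of all genes tested (grey circles) under each setting, 1 setting per line. The carriers' median lies left of that of all genes in every setting plotted, and lies above 0 with arrays centred on the median of all gene spots without loess.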

How the data were processed

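Total RNA of 3 tumours and 1 pool was hybridised on 3 two-colour arrays of 1 slide, from 250 ng with an RNA integrity number above 7, per the labels' protocols. Every array had the tumour in Cy5, so a dye effect and the tumour cannot be told apart, and slide or scan could not be tested as a batch. The intensity values are the mean signal and median local background of each spot as deposited, from Feature Extraction by Agilent (9.5.3 per the submitters' processing notes, 10.7.3.1 per the file headers). Per the file headers, its log10 ratios divide the processed red by the processed green signal. The value table the authors deposited gives log2 ratios and leaves 48.3 to 49.6% of probes blank, with no reason stated. Of its filled values, 99.84 to 99.87% lay within 0.01 of the scanner log ratio on the log2 scale, which settled scale, centring and direction. Its medians were -0.147, -0.135 and -0.108.

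Signals were corrected with normexp (offset 50) and normalised by loess within arrays, using limma 3.58.1 (R 4.3.3). Control spots had weight 0. The offset pulls ratios of dim genes towards 0. Channel signals were then scaled with Aquantile. Of 43020 gene spots per array, 157 to 190 with outlier flags were left out, 1 of them a carrier spot (Slc25a4), and 0 were saturated. Green was well above background at 52.5 to 54.2% of spots and red at 64 to 66.8%. The filter kept the 24164 probes that 1 channel at least put well above background on each of the 3 arrays. Each of 19434 genes was represented by its brightest kept probe. The two-sided test against 0 used lmFit and eBayes, and p-values were adjusted over all genes by Benjamini-Hochberg. The scripts were tested on simulated data. RefSeq (GRCm38.p6) named 26055 of 39429 probes, 53 of the 54 carrier probes among them, and gave promoters for 35 of the 45 carriers.

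The labels call the tumours biological replicates and do not describe the arrays' pool aliquots as separate samples. Named with all array values are called carriers, Ucp1 to Ucp3, Slc25a4, Slc25a5 and, for a role without a called member, its brightest. From other lists up to 3 called genes with the largest ratios are named. Other values (the remaining carriers, the array values of Slc25a1, Slc25a17 and Slc25a28, and Timm22, Tfam, Nrf1 and Gabpa) were added after they were seen. So were those of the markers Cox7a1, Prdm16, Dio2 and Csf3r. The members and lists were chosen with earlier results of these data known. Sequences from mouse chromosome 18 are not printed. The counts include 1 tested carrier whose values are not reported here.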

Additional observations from a re-analysis of the deposited data

How the results depend on the processing

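Counts of carriers called lower were 19 and 17 at normexp offsets of 0 and 16, 20 in Agilent's ratios and 19 of 35 in the authors' values. Of all genes tested, 13.1%, 11.6%, 15.9% and 17.5% were called lower in these settings, beside 9.68% in the main scaling. Carriers called higher were 2, 2, 3 and 2, beside 16.4%, 12.5%, 19.2% and 12.1% of all genes. All 14 carriers called lower and both called higher kept their calls under both other normexp offsets, loess with centring on the tested genes, Agilent's processed ratios, the authors' values, both other filters on dim probes, the median of a gene's probes, outlier spots kept, and each array left out. Dropping loess and centring on the spike-in spots kept both higher calls and 13 of the 14 lower calls, Slc25a11 being at -0.74. Limma's adjusted p there followed the size of the ratio, so these calls leave out each gene's own spread. Slc25a13 and Ucp2, both at -1.32, had adjusted p of 0.000341 and 0.000336, while their SD in the main scaling was 0.31 and 0.13. Median centring without loess called 5 carriers higher and 2 lower, Slc25a34 and Slc25a5, with a median of 0.057. On that scale the median of all genes tested was 0.77, and 39.9% of them were called higher and 2.86% lower. Of all called genes 93.3% were higher there, beside 49.1% in the main scaling and 50.6% on the spike-in scale. The cause was not tested. With median centring Slc25a11 was at 0.11, Slc25a4 at 1.16 and Slc25a46 at 0.52. The other 11 lower carriers stayed negative without a call. The spike-in scale, without loess, put Slc25a4 at 0.31 and moved the median of all genes by -0.13, and the authors' values moved it by -0.14.

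The carriers' median was -0.83 and -0.84 at offsets of 0 and 16, -0.72 after loess and centring on tested genes, -0.79 by the spike-in scale, -1.08 in Agilent's ratios, -1.19 in the authors' values over 35 carriers, -0.26 over all 45 without a filter, -0.84 with both channels required and -0.64 with the median of probes. Leaving out 1 array gave -0.71 to -0.62, with 14 to 15 lower and 2 higher, beside 9.14 to 9.88% and 8.54 to 8.68% of all genes. Dim signal left 6 carriers untested. Of those tested, 2 were kept through red alone, Slc25a15 and Slc25a30, and 2 through green alone, Slc25a21 and Slc25a23. Their values moved with the processing: Slc25a15 and Slc25a21 were at -0.94 and -0.79 on the spike-in scale, and Slc25a30 at 1.67 in Agilent's ratios.

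No paired analysis was possible because the labels give 1 group of replicates and the single pool is on every array.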

Other observations

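The RefSeq gene table gave Slc25 names to 5 further genes that the files list under other names. Slc25a51, known as a carrier of NAD, gave -1.04, -1.18 and -0.54, with a mean of -0.92 (adjusted p = 0.0118), and was not called. Slc25a47 was at 0.31 and Slc25a53 at 0.21, neither called (adjusted p = 0.136 and 0.197), and Slc25a48 and Slc25a54 were not tested.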
